A study of Homo sapiens with 3 samples.

Results

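Circular RNAs (circRNAs) of 52 genes for RNA-binding, splicing and helicase proteins were compared between 3 human pancreatic duct cell lines. The genes were chosen by symbol alone, from the host genes named in the SW1990 list: those starting with HNRNP, SRSF, SRRM, SF3, RBM, DDX, DHX, PRPF, SNRNP, U2AF, PTBP, CNOT or PABPC. They were 52 of 2418 named hosts, and their 119 distinct back-splice junctions were part of 17156 junctions over the 3 lists. No gene with a U2AF symbol was present. The HPDE and PANC-1 lists name no genes, so a junction there was given to a host when it was identical to one of that host's SW1990 junctions, shared a start or end with one, or lay inside the interval they span. In HPDE 19 of 23 junctions were identical to an SW1990 junction, and in PANC-1 36 of 74. A host at 0 reads in HPDE or PANC-1 therefore had no read at the junctions which this assignment reaches, and ratios of SW1990 to another line lean towards SW1990. Counting identical junctions only, an alternative used below, keeps every SW1990 read and drops the rings that SW1990 lacks. It leans further towards SW1990.

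HPDE is an immortalised line of non-tumour pancreatic ductal epithelial cells, and PANC-1 and SW1990 are established lines of pancreatic ductal adenocarcinoma (PDAC). HPDE was grown without serum, in keratinocyte medium with epithelial growth factor and bovine pituitary extract, and both PDAC lines were grown in DMEM with fetal bovine serum, so tumour origin and medium cannot be told apart. Antibiotics were present in all the media, and no gene was altered and no drug was compared in any line. Total RNA was sequenced from 1 library per line to compare circRNA levels between PDAC and non-tumour cells. Without replicates no difference between lines could be tested, and every interval given here covers counting error only.

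The HPDE, PANC-1 and SW1990 lists held 3370, 13341 and 3764 junctions with 1408352, 1885511 and 1273083 back-splice reads. Levels are in RPM, back-splice reads per M (mega) reads of the library total, and 1 read was worth 0.0240 RPM in HPDE against 0.0273 in PANC-1 and 0.0208 in SW1990. Among markers of ductal epithelium, KRT7 had 520 reads in SW1990 and none in the other lines, EPCAM had 7 reads in HPDE, none in PANC-1 and 38 in SW1990, and CDH1 had 43 in SW1990 alone. KRT8, KRT18 and KRT19 and every marker of mesenchyme, immune cells or endothelium that was looked up were absent from the named hosts, so the hosts could not serve to check the cell type.

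A circRNA arises when the spliceosome joins the donor site at the end of an exon to the acceptor site at the start of the same or an upstream exon, which closes a ring. Heterogeneous nuclear ribonucleoproteins (hnRNPs) and serine and arginine rich (SR) proteins bind exons and introns and steer which splice sites are used, and many of their own genes are spliced in alternative ways. The level of a circRNA depends on transcription of the host, on back-splicing and on decay, and it measures neither the mRNA nor the protein of its host.

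The sequences across 19 back-splice junctions are given because the results turn on which exons were joined in which line. Each holds the last 25 bases of the donor exon followed by the opening 25 bases of the acceptor exon, 5′ to 3′, and the capitals mark the 10 bases on each side of the back-splice. They were read from GENCODE release 29 transcripts (GRCh38), with exons counted from the 5′ end of the transcript. A junction was matched to exons by its length alone, since the deposited positions are hg19. Its genomic length had to equal the distance from the start of an exon to the end of the same or a later exon of the host. This gave 1 exon pair for 113 of 119 junctions, several pairs for 1 and none for 5. With the lengths changed by 1 base, 4 junctions still found 1 exon pair.
RBM39 exons 7 to 11: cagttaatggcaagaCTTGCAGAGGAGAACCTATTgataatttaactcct
RBM39 exons 4 to 9: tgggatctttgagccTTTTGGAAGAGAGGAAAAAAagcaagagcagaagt
RBM39 exons 4 to 6: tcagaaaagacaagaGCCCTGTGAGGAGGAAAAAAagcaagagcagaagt
RBM33 exons 3 to 5: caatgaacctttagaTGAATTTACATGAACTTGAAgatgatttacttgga
HNRNPL exons 2 to 3: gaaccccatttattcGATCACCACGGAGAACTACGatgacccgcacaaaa
HNRNPL exon 2: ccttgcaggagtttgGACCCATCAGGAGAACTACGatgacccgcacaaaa
HNRNPUL1 exons 2 to 10: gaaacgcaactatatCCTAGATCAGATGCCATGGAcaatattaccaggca
HNRNPUL1 exon 8: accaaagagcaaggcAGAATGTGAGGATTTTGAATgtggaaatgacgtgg
PTBP1 exon 8: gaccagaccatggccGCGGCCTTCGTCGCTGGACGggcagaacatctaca
PRPF6 exons 13 to 15: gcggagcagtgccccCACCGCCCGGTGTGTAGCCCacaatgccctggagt
PRPF6 exons 12 to 14: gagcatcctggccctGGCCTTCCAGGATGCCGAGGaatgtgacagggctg
PRPF6 exons 10 to 11: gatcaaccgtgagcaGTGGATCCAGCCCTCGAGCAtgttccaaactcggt
SF3B3 exons 19 to 21: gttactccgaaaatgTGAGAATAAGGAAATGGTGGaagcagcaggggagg
DDX17 exons 2 to 9: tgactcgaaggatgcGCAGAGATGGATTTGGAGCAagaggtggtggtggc
DDX17 exons 2 to 5: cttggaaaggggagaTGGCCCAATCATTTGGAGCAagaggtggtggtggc
DDX17 exons 3 to 6: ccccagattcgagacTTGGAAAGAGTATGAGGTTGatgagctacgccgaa
DDX17 exons 2 to 3: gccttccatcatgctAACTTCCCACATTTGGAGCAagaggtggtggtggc
DDX21 exon 2: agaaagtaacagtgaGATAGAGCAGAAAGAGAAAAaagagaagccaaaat
DHX37 exons 19 to 21: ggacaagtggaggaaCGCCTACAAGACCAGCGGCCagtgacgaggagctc

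The 52 hosts held 60.2 RPM in HPDE, 68.1 RPM in PANC-1 and 89.8 RPM in SW1990, from 2510, 2498 and 4323 reads. A single junction of SNRNP70, for which a back-splice was not settled, made up 25.3% of the SW1990 reads, and without it the SW1990 sum was 67.1 RPM, close to that of PANC-1. HNRNPC alone gave 42.6% of the reads in HPDE against 21.5% in PANC-1 and 15.3% in SW1990. In HPDE and PANC-1 these sums cover only the junctions which the assignment reaches. With HNRNPC counted and SNRNP70 left out, the sums lay nearer to each other, at 60.2, 68.1 and 67.1 RPM. With neither gene counted, they were 34.5, 53.5 and 53.4 RPM, so by library-total RPM the PDAC lines then lay together above HPDE. That order depends on the scaling: total back-splice reads in place of library totals move every log2 ratio by -0.61 in PANC-1 against HPDE, by 0.35 in SW1990 against HPDE and by 0.96 in SW1990 against PANC-1, and the median of junction ratios moves them by -0.22, 0.23 and 0.50. Junctions spanning under 500 bases were 15.5%, 8.99% and 17.0% of the junctions listed in HPDE, PANC-1 and SW1990. They held 84.5%, 77.6% and 82.0% of all back-splice reads, so scaling by that total rests mostly on them. Levels and ratios are given by library-total RPM unless stated. In a bulk library, fewer cells with a circRNA and fewer copies per cell cannot be told apart. Reads were found for 19 hosts in HPDE beside 37 in PANC-1 and all 52 in SW1990, the last by construction. All 3 lines had reads for 18 hosts, PANC-1 and SW1990 shared 19 more, HPDE and SW1990 shared PTBP1, and 14 had reads in SW1990 alone.

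**Figure D1:**
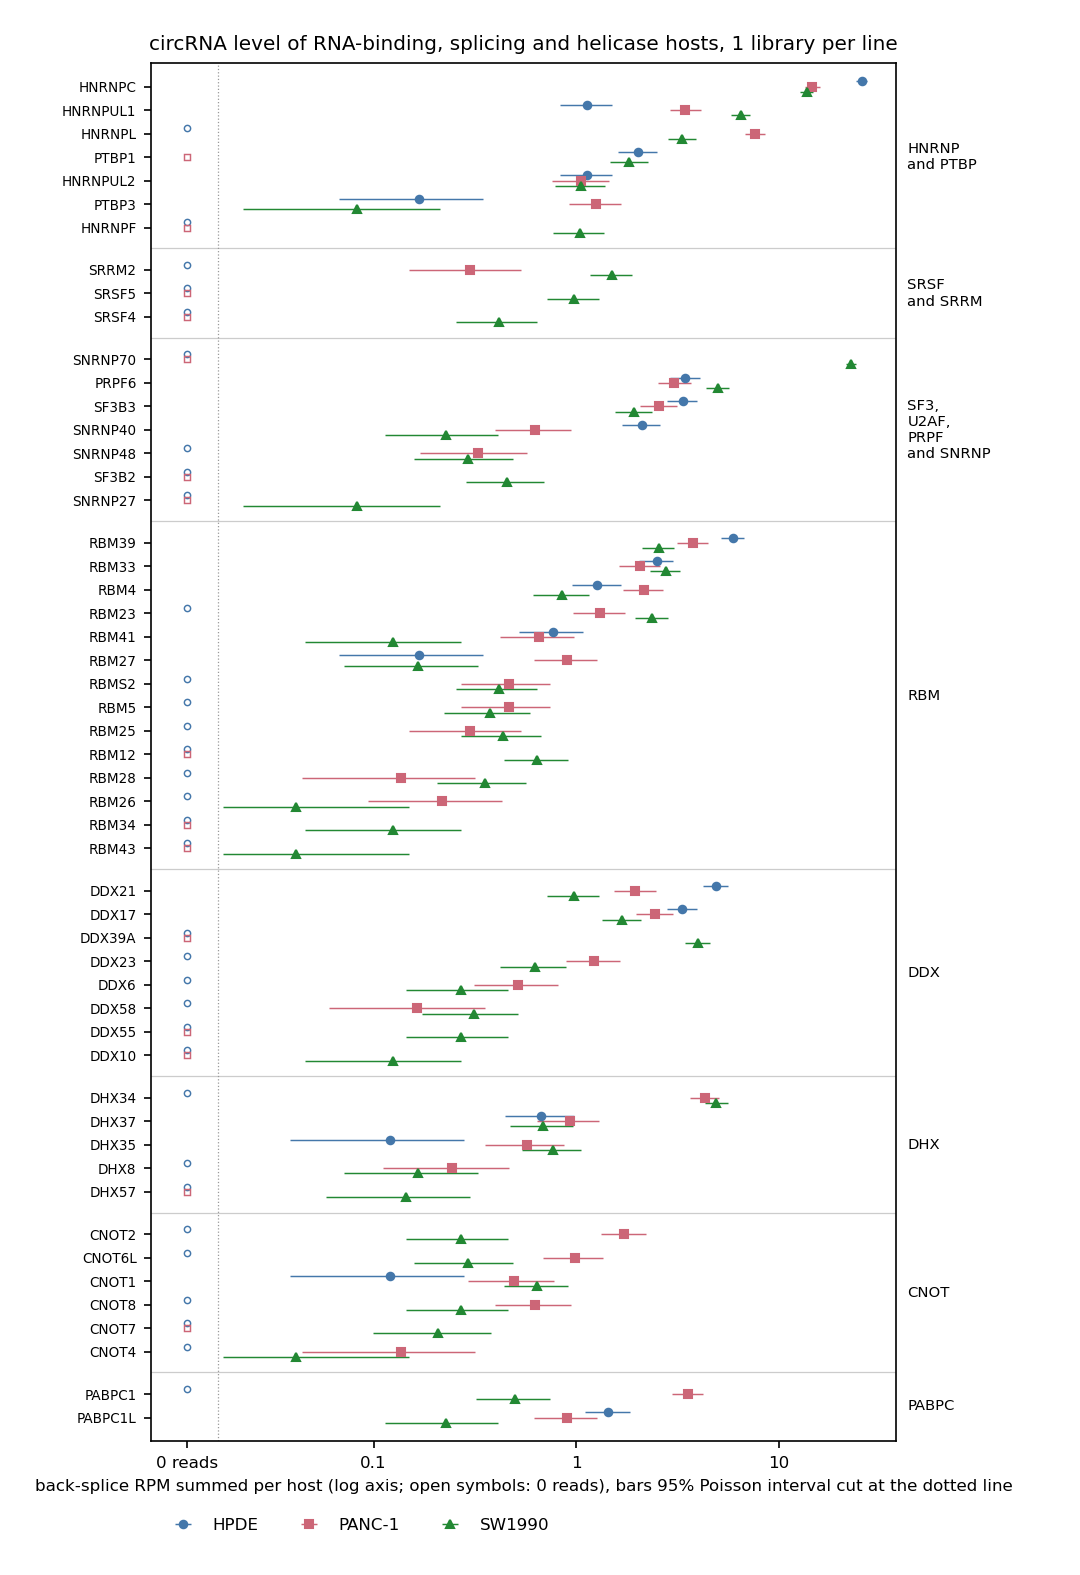
Back-splice RPM summed per host (log axis) in HPDE, PANC-1 and SW1990, with hosts in rows by role, bars for the 95% Poisson interval cut at the dotted line, and open symbols for 0 reads. HNRNPC stands highest in HPDE and PANC-1 at 25.7 and 14.6 RPM, and SNRNP70 at 22.7 RPM in SW1990.

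Among the hnRNP and PTBP hosts, which package nascent RNA or repress exons, HNRNPC carried the most reads over the 3 lines. HNRNPC, a core hnRNP that binds uridine tracts, stood at 25.7 RPM in HPDE, with a 95% interval from 24.1 to 27.2. PANC-1 had 14.6 RPM (13.4 to 15.9) and SW1990 13.7 RPM (12.7 to 14.8). HPDE was highest, and by library-total RPM the PDAC lines did not differ beyond their counting error. Relative to HPDE its level was 1.76-fold lower in PANC-1 (1.58 to 1.95) and 1.87-fold lower in SW1990 (1.69 to 2.06), short of the 2-fold used for a call. PANC-1 passed it under both other scalings, at log2 ratios of -1.42 and -1.03. The same scalings bring SW1990 nearer to HPDE, moving that log2 ratio up by 0.35 and 0.23. They move SW1990 against PANC-1 up by 0.96 and 0.50, so the near-equal level of the PDAC lines depends on the scaling. All HNRNPC reads came from exons 3 to 5, chr14:21698478-21702388. HNRNPC has near-identical gene copies, and how reads with several matches were treated is not given in the sources used here.

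HNRNPL, which binds CA repeats, had 0 reads in HPDE against 280 in PANC-1 (7.64 RPM) and 161 in SW1990 (3.34 RPM). The PDAC lines were at least 106-fold and 46.5-fold above HPDE, with HPDE set to a limit of 3 reads, as for every host at 0. The junctions differed between them: PANC-1 had only exons 2 to 3, chr19:39336493-39338074, and SW1990 only exon 2, chr19:39337956-39338074. Both rings start at the same acceptor, as the shared right-hand ends of their printed sequences show. Identical junctions only, which drops the PANC-1 ring, therefore gave HNRNPL a log2 ratio of at least 5.35 in SW1990 against PANC-1. HNRNPUL1, an hnRNP U-like protein, was at 1.13 RPM in HPDE (47 reads) beside 3.46 in PANC-1 (127) and 6.48 in SW1990 (312), with intervals that did not overlap. SW1990 was past 2-fold above PANC-1 under both other scalings, at log2 ratios of 1.86 and 1.40, and below it, at -1.93, without spans under 500 bases. Its exon 8 ring had 47, 2 and 269 reads, and PANC-1 instead had 119 reads of exons 2 to 10, so with junctions identical to SW1990 ones alone PANC-1 lay below HPDE, at a log2 ratio of -4.37. HNRNPUL2 was at 1.13, 1.06 and 1.06 RPM, yet 41 of 47 HPDE reads joined exons 2 to 8, a ring without reads in the PDAC lines, which used exons 2 to 4 (6, 39 and 51 reads). The near-equal sums depend on the assignment: PANC-1 had 89 HNRNPUL2 reads with partly overlapping junctions, a log2 ratio of 1.11 to HPDE, and over identical junctions only the PDAC lines stood at 2.89 and 2.88.

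PTBP1, the polypyrimidine tract repressor, was listed at 84 reads in HPDE (2.01 RPM) against 0 in PANC-1 and 88 in SW1990 (1.83 RPM), all from its exon 8 ring, chr19:805013-805187. HPDE and SW1990 did not differ beyond counting error, and PANC-1 was at least 24.6-fold below HPDE. Its paralogue PTBP3 was highest in PANC-1, at 0.168 RPM in HPDE (7 reads) beside 1.25 in PANC-1 (46) and 0.0831 in SW1990 (4). PANC-1 was 7.47-fold above HPDE (3.35 to 19.6), and SW1990 lay 15.1-fold below PANC-1 (5.51 to 57.8). HNRNPF, which binds G tracts, had 50 reads (1.04 RPM) in SW1990 and none in the other lines.

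Under the assignment used, the SR-related hosts had most of their reads in SW1990, the line from whose list they were named. SRRM2, a large scaffold of nuclear speckles, had 0 reads in HPDE against 11 in PANC-1 (0.300 RPM) and 72 in SW1990 (1.50 RPM), and SW1990 was 4.99-fold above PANC-1 (2.63 to 10.4). SRSF5 had 47 reads (0.976 RPM) and SRSF4 had 20 reads (0.415 RPM) in SW1990, and both were at 0 elsewhere. For SRSF4 the zeros depend on the assignment: with junctions that partly overlap the host interval counted too, it had 30, 62 and 20 reads in HPDE, PANC-1 and SW1990.

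Among the spliceosome components, SNRNP70, the U1 snRNP protein, had 1093 reads in SW1990 (22.7 RPM, 21.4 to 24.1) and none in HPDE or PANC-1. It was the highest of the hosts in SW1990, at least 278-fold above PANC-1 and 316-fold above HPDE. All reads came from chr19:49611134-49611365, a span of 232 bases that matched no exon pair, and whether it is a back-splice was not settled here. PRPF6, which bridges the tri-snRNP, was at 3.45 RPM in HPDE beside 3.05 in PANC-1 and 5.01 in SW1990, and SF3B3, a subunit of the U2 snRNP that recognises the branch site, was at 3.36, 2.56 and 1.93 RPM. Neither reached a 2-fold difference in any pair by RPM. PRPF6 in SW1990 passed 2-fold above PANC-1 under both other scalings, at log2 ratios of 1.67 and 1.21, and over identical junctions only PANC-1 was below HPDE, at -1.28, and SW1990 above PANC-1, at 1.82. SNRNP40, a U5 snRNP protein, was at 2.11 RPM in HPDE (88 reads) against 0.627 in PANC-1 (23) and 0.229 in SW1990 (11), and HPDE was highest. HPDE joined exons 2 to 3 in all 88 reads and PANC-1 joined exons 3 to 5 in all 23. SF3B2, a partner of SF3B3 in the U2 snRNP, had 22 reads in SW1990 alone, and SNRNP48 of the minor spliceosome had 0, 12 and 14.

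The RBM hosts, named for RNA-binding motifs, were the largest group, with 14 genes including RBMS2. RBM39, a splicing cofactor degraded by aryl sulfonamide drugs, was at 5.92 RPM in HPDE (247 reads) beside 3.76 in PANC-1 (138) and 2.56 in SW1990 (123). HPDE was highest, and SW1990 was 2.32-fold below it (1.86 to 2.90), a call lost under both other scalings, at log2 ratios of -0.86 and -0.99. PANC-1 passed 2-fold below HPDE by total back-splice reads (-1.26) and over identical junctions only (-1.72). It also did so with partly overlapping junctions (-1.37), where HPDE had 407 RBM39 reads. RBM33 was level at 2.49, 2.07 and 2.76 RPM, and its ring of exons 3 to 5, chr7:155465561-155473602, had 104, 67 and 133 reads. RBM4, a splicing regulator, was at 1.27, 2.15 and 0.852 RPM, highest in PANC-1. RBM23, a relative of RBM39, had 0, 48 and 114 reads from exons 3 to 5. RBM41 was lowest in SW1990 at 0.125 RPM (6 reads) against 0.767 in HPDE (32) and 0.655 in PANC-1 (24), and RBM27 stood apart in PANC-1 at 0.900 RPM (33 reads) against 0.168 in HPDE (7) and 0.166 in SW1990 (8). RBM5 had 0, 17 and 18 reads, RBMS2 0, 17 and 20, and RBM25 0, 11 and 21. By library-total RPM the PDAC lines differed beyond counting error in none of these. RBM25 in SW1990 passed 2-fold above PANC-1 under both other scalings, at log2 ratios of 1.50 and 1.04. RBM12, whose locus overlaps CPNE1, had 31 reads in SW1990 alone, from a junction that matched no exon pair. With partly overlapping junctions it had 38 in PANC-1 and 31 in SW1990.

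The DEAD-box helicases unwind short RNA duplexes and remodel RNA and protein complexes. DDX21, a nucleolar helicase, was at 4.87 RPM in HPDE (203 reads) against 1.96 in PANC-1 (72) and 0.976 in SW1990 (47), with intervals that did not overlap. All HPDE reads came from the exon 2 ring, chr10:70719562-70720005, to which PANC-1 gave 15 reads and SW1990 28. The PDAC lines also joined exons 4 to 6, with 37 and 19 reads. With spans under 500 bases left out, which removes the exon 2 ring, DDX21 was higher in PANC-1 and SW1990 than in HPDE, at log2 ratios of at least 4.43 and 2.46. With partly overlapping junctions PANC-1 had 106 DDX21 reads. DDX17, a splicing and transcription cofactor, was at 3.33, 2.45 and 1.68 RPM, in the same order of lines, with no pair past 2-fold. By total back-splice reads PANC-1 passed 2-fold below HPDE, at a log2 ratio of -1.05. The DDX17 log2 ratio of SW1990 to PANC-1 was -0.54, and the other scalings move it up by 0.96 and 0.50. The order of the PDAC lines for DDX17 therefore depends on the scaling. Over identical junctions only, DDX17 had 0, 1 and 81 reads. That setting drops the leading HPDE and PANC-1 rings, which SW1990 lacks, so no order of lines is read from it. DDX39A, of the mRNA export machinery, had 192 reads in SW1990 (3.99 RPM) and none in the other lines. Of these, 172 matched exons 10 to 11 by length. Exon 11 is the last of the transcript and has no donor site, so whether this junction is a back-splice was not settled. With partly overlapping junctions PANC-1 had 103 DDX39A reads. DDX23, a tri-snRNP helicase, had 0, 45 and 30 reads and shared no junction between lines: PANC-1 joined exons 7 to 8, and SW1990 joined exons 12 to 13 in 26 reads. DDX6, a decay factor of processing bodies, had 0, 19 and 13 reads, and DDX58, the RIG-I sensor of viral RNA, had 0, 6 and 15.

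Among the DEAH-box helicases, DHX34, which acts in nonsense-mediated decay, had 0 reads in HPDE beside 158 in PANC-1 (4.31 RPM) and 237 in SW1990 (4.92 RPM). By library-total RPM the PDAC lines did not differ beyond counting error, and both were at least 59.9-fold above HPDE. By total back-splice reads SW1990 passed 2-fold above PANC-1, at a log2 ratio of 1.15. Nearly all reads, 157 and 235, joined exons 2 to 6, chr19:47856011-47865950. DHX37, a ribosome biogenesis helicase, was level at 0.671, 0.927 and 0.686 RPM from 28, 34 and 33 reads of exons 19 to 21, chr12:125436944-125438757. DHX35 had 5, 21 and 37 reads, and no junction of it was shared between lines. PANC-1 had 49 DHX35 reads with partly overlapping junctions.

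The CNOT hosts encode subunits and nucleases of the CCR4-NOT complex, which shortens poly(A) tails. All of the CNOT hosts other than CNOT1 were at 0 in HPDE. CNOT2, a structural subunit, had 63 reads in PANC-1 (1.72 RPM) and 13 in SW1990 (0.270 RPM), and SW1990 was 6.36-fold below PANC-1 (3.47 to 12.6). The nucleases CNOT6L and CNOT8 had the same order, with 36 and 14 reads for CNOT6L and 23 and 13 for CNOT8. CNOT1, the scaffold, had 5, 18 and 31 reads in HPDE, PANC-1 and SW1990. Of these, 5, 8 and 12 came from junctions that matched no exon pair, which includes every HPDE read. The PABPC proteins coat poly(A) tails. PABPC1 had 0 reads in HPDE against 130 in PANC-1 (3.55 RPM) and 24 in SW1990 (0.499 RPM). Of the PANC-1 reads, 122 joined exons 2 to 14, a ring without reads in SW1990. Identical junctions only, which drops the PANC-1 rings, gave a log2 ratio of at least 2.61 in SW1990 against PANC-1. PABPC1 also has near-identical gene copies. PABPC1L was highest in HPDE, from 1.44 RPM in HPDE (60 reads) to 0.900 in PANC-1 (33) and 0.229 in SW1990 (11). The remaining hosts, CNOT4, CNOT7, DDX10, DDX55, DHX8, DHX57, RBM34, RBM43 and SNRNP27, had no HPDE read, at most 9 reads in PANC-1 and at most 13 in SW1990. With partly overlapping junctions DDX55 had 14, 14 and 13 reads and RBM34 had 19 in PANC-1.

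To ask which hosts differed between lines, a host was called higher or lower where its RPM differed at least 2-fold and it had at least 10 reads over both libraries. In PANC-1 against HPDE, 19 of 33 member hosts tested were higher and 3 were lower, beside 64.7% higher and 13.2% lower among all 1454 hosts tested, or 77.9% in either direction. The members' shares were 57.6% and 9.09%. HNRNPL, DHX34, PABPC1, CNOT2, RBM23 and DDX23 led the higher hosts, each at least 17.1-fold above HPDE with no HPDE read. CNOT6L and CNOT8 followed at 13.6-fold and 8.72-fold or more. Among hosts with reads in both libraries, PTBP3, RBM27, DHX35, CNOT1 and HNRNPUL1 were higher and SNRNP40 (3.36-fold, 2.11 to 5.58) and DDX21 (2.48-fold, 1.89 to 3.29) were lower, and PTBP1 was lower with no PANC-1 read. The median log2 ratio of the members was 2.06, beside 2.02 over all hosts. Over hosts with reads in both libraries it was -0.20 for the 18 members and 0.85 for all hosts.

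In SW1990 against HPDE, 28 of 44 members tested were higher and 6 were lower, beside 61.0% higher and 12.9% lower among all 1779 hosts, or 73.9% in either direction. Of the higher members 25 had no HPDE read, a side that the naming of hosts from SW1990 favours. The others were HNRNPUL1 at 5.75-fold (4.22 to 7.99), DHX35 at 6.41-fold (2.51 to 20.9) and CNOT1 at 5.37-fold (2.07 to 17.7). The lower hosts were SNRNP40 at 9.24-fold (4.92 to 19.2), PABPC1L at 6.30-fold (3.28 to 13.3), RBM41 at 6.16-fold (2.54 to 18.0), DDX21 at 4.99-fold (3.62 to 7.00), RBM39 and PTBP3. PTBP3 rests on 4 reads against 7, and its interval runs from 0.514 to 9.41, so the direction was not resolved at this depth. RBM39 and PTBP3 were no longer called under either other scaling. The median log2 ratio of the members was 2.02, beside 1.73 over all hosts. Among the 19 members with reads in both libraries the median log2 ratio was -0.58, beside -0.13 over all such hosts. Both comparisons share the HPDE library.

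In SW1990 against PANC-1, the PDAC lines set side by side, 12 of 46 members tested were higher and 13 were lower, beside 33.7% higher and 34.1% lower among all 2017 hosts, or 67.8% in either direction. The members' shares were 26.1% and 28.3%. Of the higher members 10 had no PANC-1 read, led by SNRNP70, DDX39A, PTBP1, HNRNPF and SRSF5, and the rest were SRRM2 and RBM28, the latter at 17 reads against 5 with an interval that includes no difference (0.917 to 8.98). The lower members were led by PTBP3 (15.1-fold), PABPC1 (7.11-fold, 4.58 to 11.5), CNOT2, RBM27 (5.42-fold, 2.45 to 13.6), RBM41 and RBM26 (both 5.25-fold), and RBM26 had 2 reads against 8. The split depends on the scaling: by total back-splice reads 21 members were higher and 7 lower, beside 46.4% and 18.3% of all hosts, and by the median of junction ratios 17 and 8, beside 39.4% and 25.2%. HNRNPL, DDX21, RBM4, SNRNP40 and CNOT8 were no longer lower under either, nor CNOT6L by total back-splice reads. HNRNPUL1, PRPF6, RBM23, RBM25 and DDX58 became higher under both, and CNOT1, DHX34, DHX35 and RBM33 by total back-splice reads. In PANC-1 against HPDE the split by total back-splice reads was 19 and 7, beside 55.8% and 18.1%, with HNRNPC, RBM39, DDX17 and PABPC1L added to the lower hosts.

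**Figure D2:**
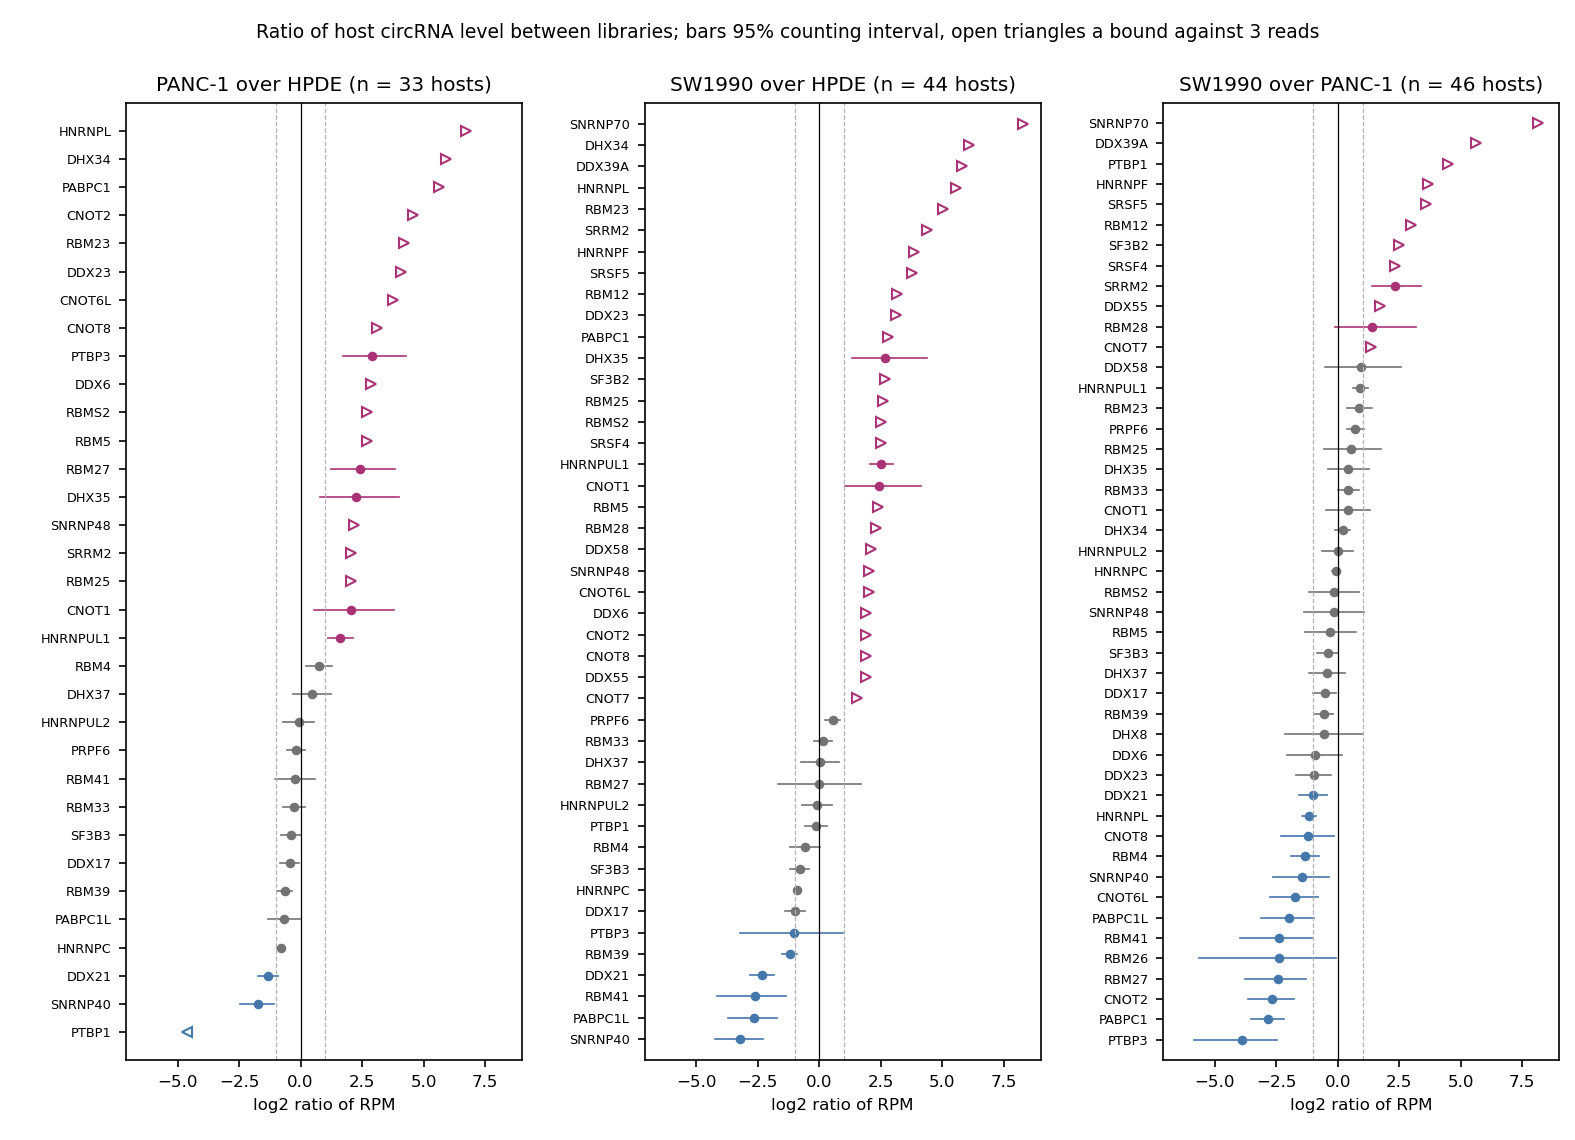
Log2 ratio of host RPM for the 3 pairs of lines, with points for hosts with reads in both libraries, bars for 95% counting intervals and open triangles for bounds against a limit of 3 reads; dashed lines mark a 2-fold ratio. SW1990 against HPDE has 28 hosts to the right of the dashed lines and 6 to the left, while SW1990 against PANC-1 has 12 and 13.

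An exact conditional binomial test on the reads, two-sided with Benjamini-Hochberg adjustment over all hosts, compares these libraries and not the conditions. With the same 2-fold requirement it called 19 members higher and 3 lower for PANC-1 against HPDE, where it called 63.5% and 12.8% of all hosts. It called 28 and 5 in SW1990 against HPDE (59.5% and 11.8% of all hosts), without PTBP3 among the lower hosts, and 11 and 13 in SW1990 against PANC-1 (31.7% and 31.5%), without RBM28 among the higher ones.

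By role, 4 of 4 CNOT hosts tested were higher in PANC-1 than in HPDE and 5 of 5 in SW1990 than in HPDE, beside 64.7% and 61.0% of all hosts. Of 5 CNOT hosts 3 were lower in SW1990 than in PANC-1, beside 34.1% of all hosts, and CNOT6L and CNOT8 lost that call by total back-splice reads, at log2 ratios of -0.80 and -0.26. The 3 SRSF and SRRM hosts were higher in SW1990 than in HPDE and than in PANC-1, where 33.7% of all hosts were higher, and SRSF4 was not with partly overlapping junctions. None of the 4 DHX hosts tested differed 2-fold between the PDAC lines by RPM, but DHX34 and DHX35 did by total back-splice reads, at log2 ratios of 1.15 and 1.38. Of 12 RBM hosts tested between the PDAC lines, 2 were higher in SW1990, 4 were lower and 6 lay within 2-fold, and these counts too depend on the scaling. The counts are small, and most of the higher ones are bounds against lines with no read, so nothing particular to a role is read from them.

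At the level of single junctions, 15 of the 119 (12.6%) were listed in all 3 lines, 26 (21.8%) in 2 and 78 (65.5%) in 1, beside 3.84%, 11.7% and 84.5% for the junctions of the whole series. The member junctions were drawn from the SW1990 list or next to it, and the shares depend on that: of the SW1990 junctions, 24.4% of the members' and 23.5% of all named hosts' were also in HPDE, and 46.2% and 44.4% were also in PANC-1. Compared junction by junction, 32 of 49 member junctions were higher and 11 lower in PANC-1 than in HPDE, beside 72.0% and 21.1% of all 6701 junctions tested. SW1990 against HPDE gave 39 and 9 of 56, beside 44.0% and 45.7%, and SW1990 against PANC-1 gave 29 and 26 of 73, beside 19.5% and 72.0%. Those backgrounds include HPDE and PANC-1 junctions given to no host. Among junctions of all named hosts, drawn as the members were, 66.2% were higher and 21.7% lower in PANC-1 than in HPDE, and 63.3% and 21.9% in SW1990 than in HPDE. For SW1990 against PANC-1 they were 40% (1282 of 3203) and 42.3%. The members' own shares were 65.3% and 22.4%, then 69.6% and 16.1%, then 39.7% and 35.6%.

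**Figure D3:**
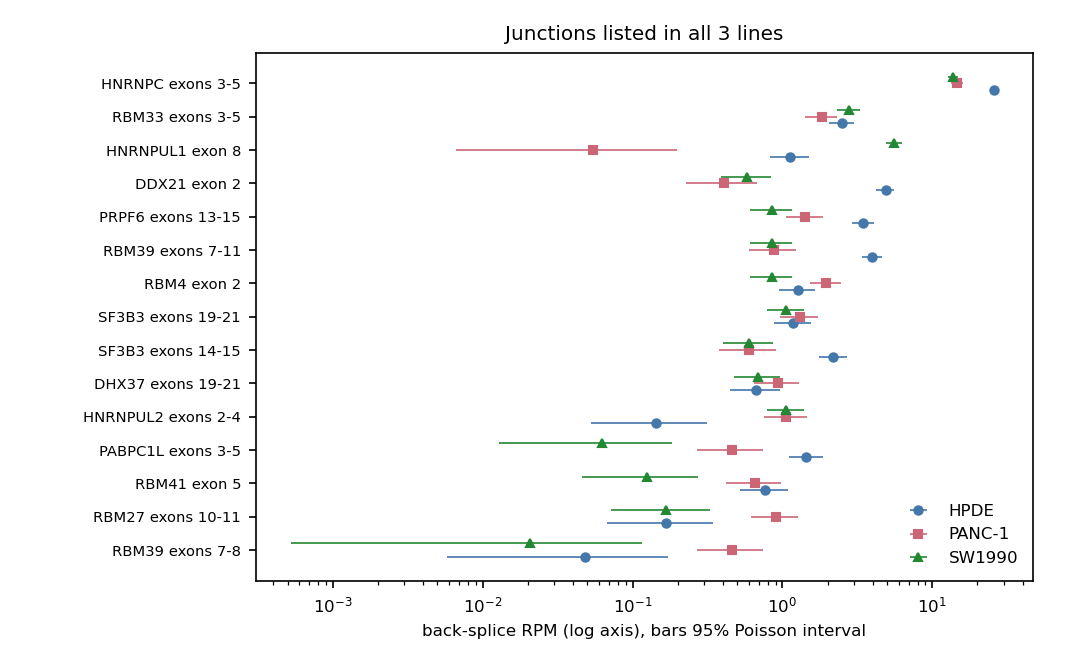
Back-splice RPM (log axis) of the 15 member junctions listed in all 3 lines, with 95% Poisson intervals for HPDE, PANC-1 and SW1990. DHX37 exons 19 to 21 and SF3B3 exons 19 to 21 are level across the lines, while DDX21 exon 2 is highest in HPDE and HNRNPUL1 exon 8 in SW1990.

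Of the 15 shared junctions, SF3B3 exons 19 to 21 (chr16:70598968-70601439; 49, 48 and 51 reads) and DHX37 exons 19 to 21 did not differ beyond counting error in any pair, and RBM33 exons 3 to 5 stayed within 1.51-fold. Several were highest in HPDE. RBM39 exons 7 to 11, chr20:34302107-34313077, had 165, 32 and 41 reads, which is 4.53-fold (3.09 to 6.85) and 4.65-fold (3.28 to 6.71) more RPM in HPDE than in PANC-1 and SW1990. SF3B3 exons 14 to 15 had 91, 22 and 29 reads (3.64-fold and 3.62-fold), PRPF6 exons 13 to 15 had 144, 52 and 41 (2.44-fold and 4.05-fold), and DDX21 exon 2 was 11.9-fold (7.05 to 21.7) and 8.37-fold (5.62 to 12.9) higher. PABPC1L exons 3 to 5 had 60, 17 and 3 reads. HNRNPUL2 exons 2 to 4 went the other way, 7.39-fold (3.11 to 21.4) and 7.36-fold (3.16 to 21.0) higher in PANC-1 and SW1990 than in HPDE. RBM4 exon 2 had 53, 72 and 41 reads, and RBM39 exons 7 to 8 had 2, 17 and 1.

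Hosts could differ between lines in the ring they made. More than 1 junction was listed for 26 hosts, and 67 junctions of 21 hosts shared an acceptor or donor with another. Over hosts with at least 10 reads in both lines, including hosts with 1 junction, the junction with the most reads was the same one in 16 of 29 hosts for SW1990 and PANC-1, in 6 of 14 for PANC-1 and HPDE and in 8 of 14 for SW1990 and HPDE. These are 55.2%, 42.9% and 57.1%, close to the 51.5%, 48.6% and 55.0% of all named hosts counted the same way. DDX17 had 7 junctions and a different leader in each line: exons 2 to 5 in HPDE (139 reads, its only ring there), exons 2 to 9 in PANC-1 (82 of 90 reads) and exons 3 to 6 in SW1990 (49 of 81), where exons 2 to 3 gave the other 32. The 3 DDX17 rings that begin at exon 2 share the right-hand side of the printed sequences and differ in the donor on the left.

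RBM39 also had 7 junctions. Exons 7 to 11 led in HPDE, with exons 4 to 6 at 80 reads. In SW1990 the order was turned, with 69 reads of exons 4 to 6 and 41 of exons 7 to 11. PANC-1 had no read of exons 4 to 6 and 59 of exons 4 to 9, a ring with the same acceptor, chr20:34309662-34320057, that had no read in the other lines. PRPF6 used exons 13 to 15 alone in HPDE (144 reads). PANC-1 added exons 10 to 11 (60 reads beside 52), and SW1990 was led by exons 12 to 14 (163 reads beside 41), chr20:62648076-62656046. PTBP3 rings all began at exon 3: PANC-1 used donors at exons 4, 5, 6 and 8 with 4, 15, 17 and 10 reads, HPDE only exon 6 and SW1990 only exon 4.

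**Figure D4:**
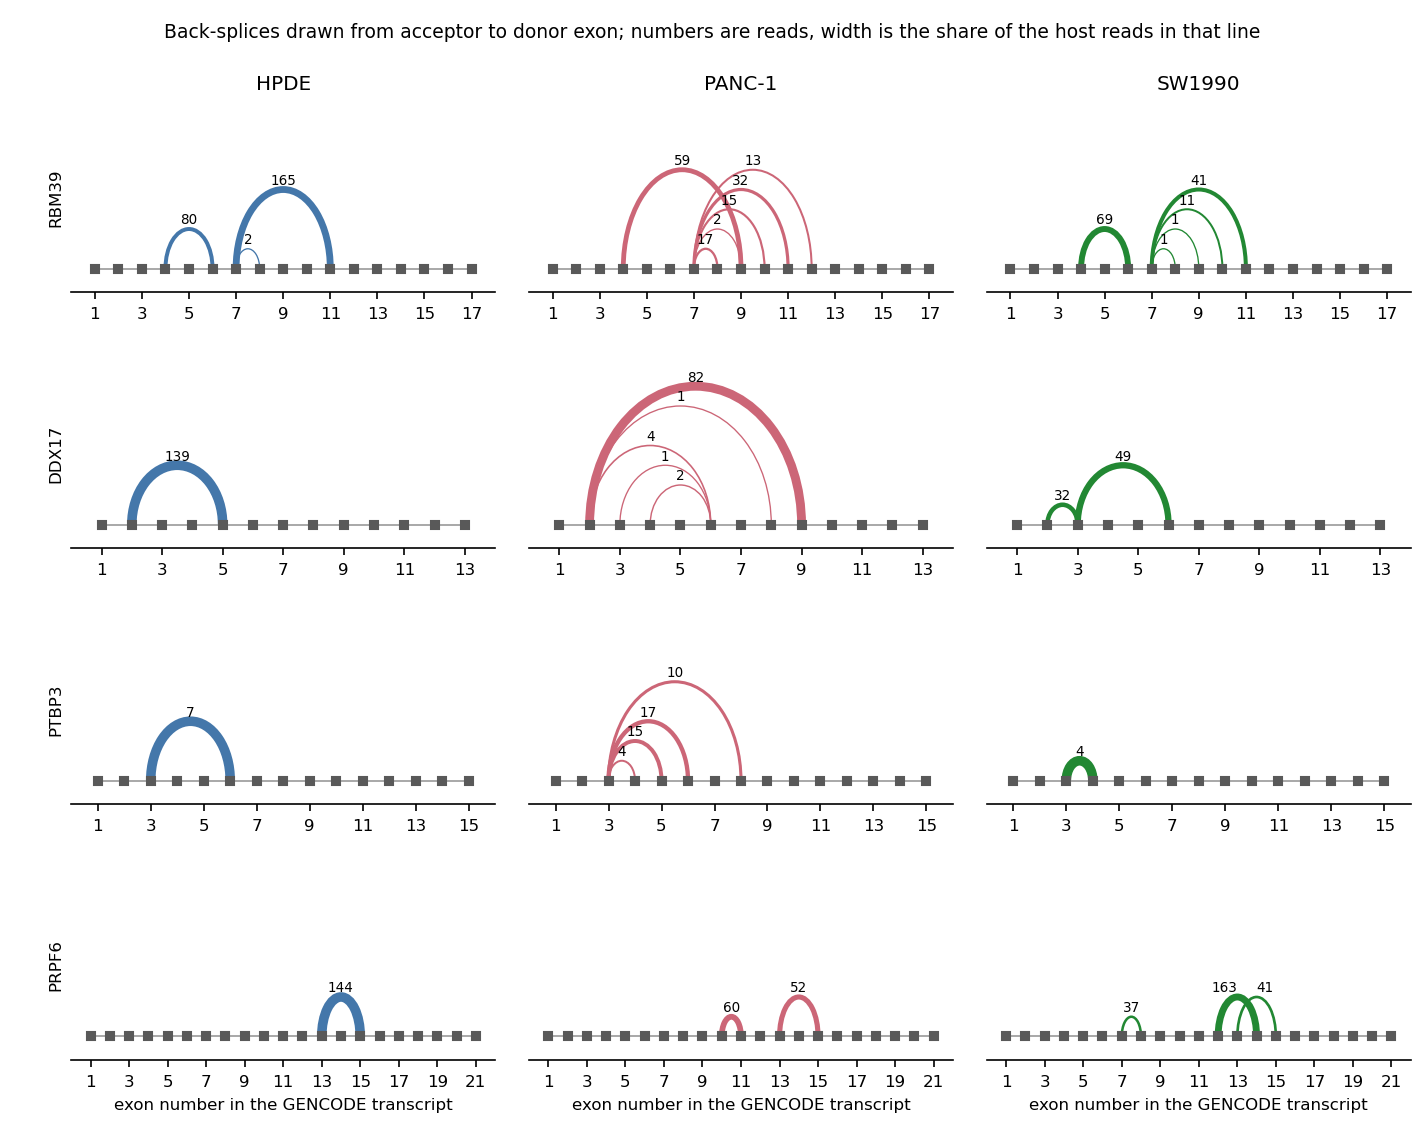
Back-splices of RBM39, DDX17, PTBP3 and PRPF6 as arcs from acceptor to donor exon (x axis: exon number in the transcript) in each line, labelled with reads and with width for the share of the host's reads in that line. The DDX17 arcs differ in every line, with 139 reads at exons 2 to 5 in HPDE, 82 at exons 2 to 9 in PANC-1 and 49 at exons 3 to 6 in SW1990.

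**Figure D5:**
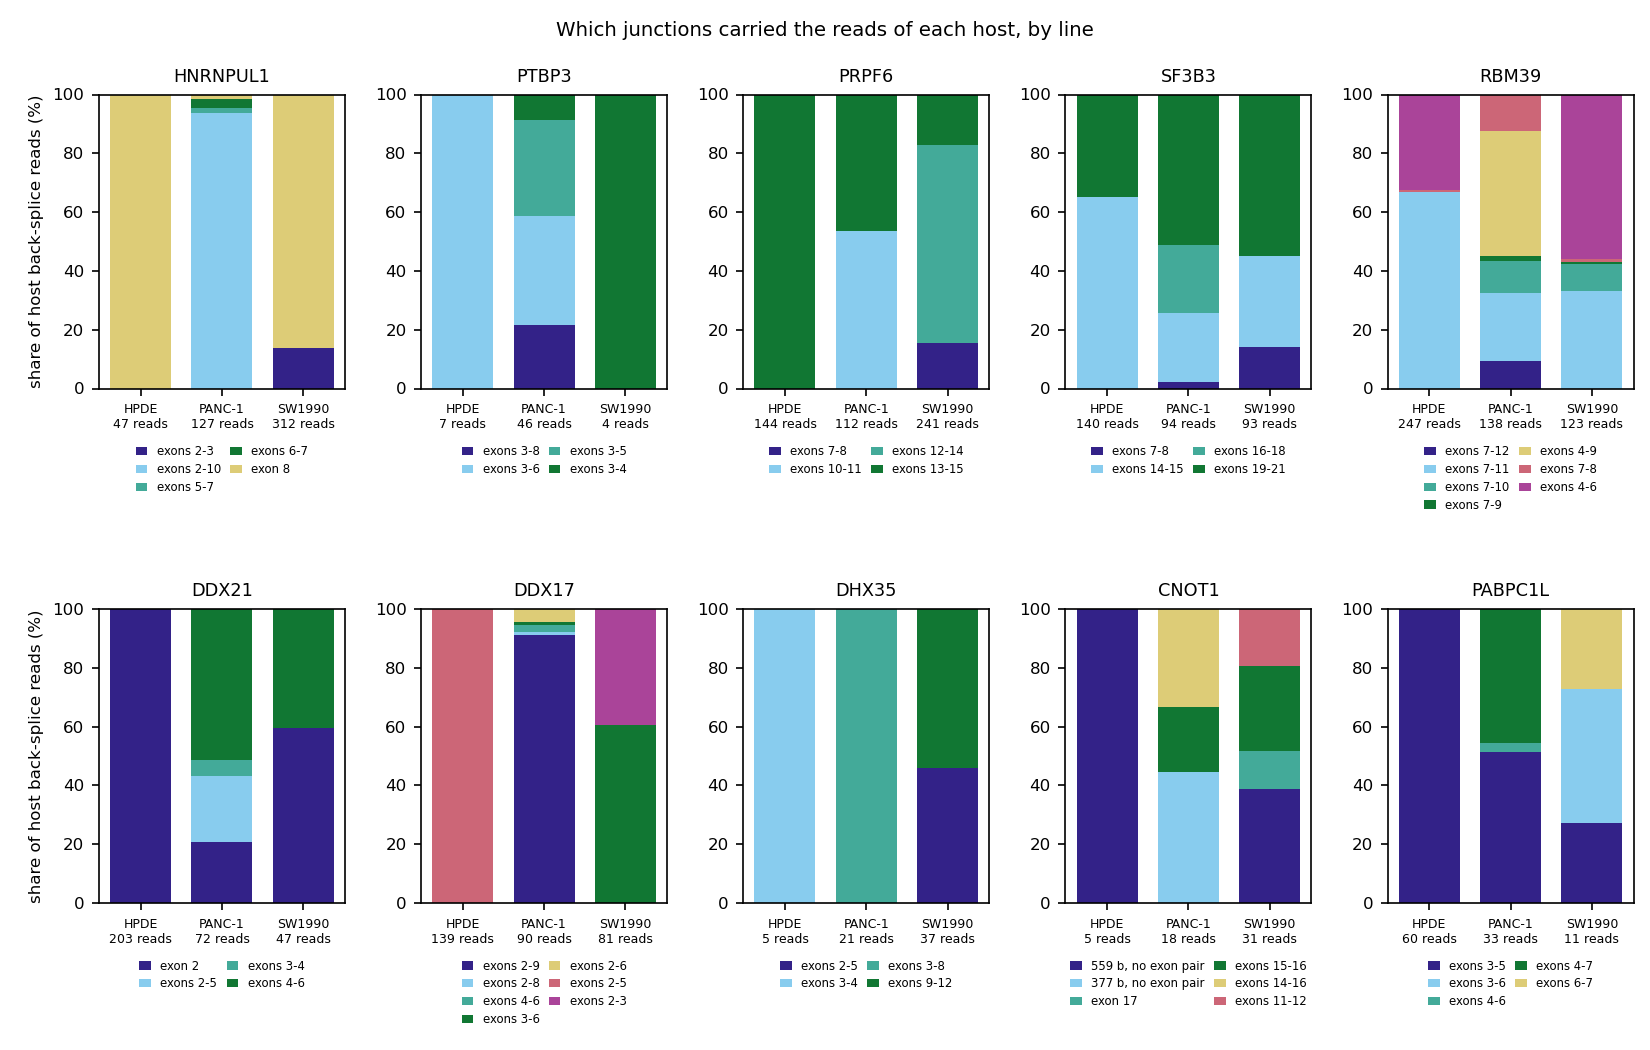
Share of each host's back-splice reads (y axis, %) carried by each junction in HPDE, PANC-1 and SW1990, for 10 hosts with reads in all 3 lines and several junctions, with total reads under each bar. HNRNPUL1 is made of exon 8 in HPDE and mostly of exon 8 in SW1990, but mostly of exons 2 to 10 in PANC-1.

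The 113 junctions matched to 1 exon pair had a median of 3 exons and 351 exonic bases, from 119 to 1870. Rings of 1 exon numbered 14, rings of 2 to 5 exons 88 and longer rings 11. The acceptor was exon 2 in 34 of them and exon 1 in none, and exon 1 has no acceptor site. The donor was the last exon in 1, the DDX39A junction of exons 10 to 11, and a last exon has no donor site. The ring lay wholly inside coding sequence in 95, of which 35 had a length divisible by 3. Rings of 1 exon carried 16.7% of the matched reads in HPDE against 4.9% in PANC-1 and 19.8% in SW1990. Rings starting at exon 2 carried 21.2%, 42.0% and 24.8%, with HNRNPL, PABPC1, HNRNPUL1, DDX17 and DHX34 among those of PANC-1. Neither share was computed over all hosts, so nothing particular to the members is read from them. Junctions spanning under 500 bases held 16.7%, 7.53% and 44.4% of all member reads, and in SW1990 SNRNP70 gave 1093 of these 1921 reads. In the whole series they held 84.5%, 77.6% and 82.0% of the reads. They were 15.5%, 8.99% and 17.0% of its junctions, so PANC-1 was lowest there too.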

How the data were processed

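The 3 deposited tables give 1 back-splice junction per line with its hg19 coordinates. HPDE and PANC-1 values are RPM, per the file headers, and the deposited SW1990 table adds the read count and a host symbol to its RPM. Per the submitters' processing notes, TopHat2, TopHat and HTSeq were used, with no versions. The sources used here do not give the circRNA caller or its filters. All RPM values were whole multiples of 1 read within 0.05 reads (100% in each library), and the recovered reads equalled the deposited count for 3764 of 3764 SW1990 junctions. The totals behind the RPM were 41.7, 36.7 and 48.1 M (mega) reads for HPDE, PANC-1 and SW1990.

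Reads were summed per host. A host needed 10 reads over both libraries and a fold of at least 2 to be called, and a library at 0 was set to a limit of 3 reads, so its fold is a bound that leaves out the counting error of the other library. Intervals are 95% (Poisson for RPM, exact conditional binomial for ratios). The main calls use no test, because the values are RPM from 1 library per line, and an exact binomial test on recovered reads is one of the alternatives. The other alternatives were 2 scalings, read minimums of none and 40, a limit of 1 read, 4 assignments of junctions to hosts and a fold of 4. The host calls were tested on simulated data. Each line of the HPDE and PANC-1 tables that was empty was not analysed here.

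Named hosts were the 30 with the highest mean RPM, in each comparison the 10 highest and 10 lowest ratios with reads in both libraries and those with at least 20 reads against none, and all junctions listed in 3 lines. Other hosts are named beside them where they complete a group. The members, lists and tests were chosen with earlier results of these data known. Python 3.11.15, numpy 2.4.6, scipy 1.17.1, pandas 2.3.3 and matplotlib 3.10.9 were used.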

Additional observations from a re-analysis of the deposited data

Results flagged for a closer look

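PTBP3 circRNA was higher in PANC-1 than in HPDE, with a log2 ratio of 2.90, and lower in SW1990 than in HPDE, with a log2 ratio of -1.01, so the PDAC lines lay on opposite sides of HPDE. The difference between these ratios was not tested, both share the HPDE library, and the SW1990 ratio rests on 4 reads against 7, with an interval of the fold from 0.514 to 9.41. It fell short of 2-fold under both other scalings, at -0.66 and -0.79. SW1990 set directly against PANC-1 was 15.1-fold lower (5.51 to 57.8).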

How the results depend on the processing

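No paired analysis was possible because each line has 1 library and no replicate, and for the same reason no replicate could be left out. Of 1277 values of single hosts under the alternatives, 1186 kept their call as higher, lower or within 2-fold. A further 41 lost a call, and 10 called values turned their direction. Of values within 2-fold, 32 gained a call in their own direction and 8 in the other. Many could not change: a read minimum leaves a host's ratio as it was, and a limit of 1 read only enlarges a bound. These settings gave 123 values without a minimum, 75 at 40 reads and 123 at the limit of 1 read. The count of 1186 is therefore no measure of stability. With spans under 500 bases left out, DDX21 turned to a log2 ratio of 4.43 in PANC-1 and 2.46 in SW1990 against HPDE, since its HPDE reads are all in a ring of 444 bases. With identical junctions only, HNRNPUL1 turned to -4.37 in PANC-1 against HPDE, and HNRNPL and PABPC1 to 5.35 and 2.61 in SW1990 against PANC-1, because their main PANC-1 rings are not in the SW1990 list. With partly overlapping junctions counted too, DDX55 and SRSF4 turned to -0.31 and -0.79 in SW1990 against HPDE, and DDX55, RBM12 and SRSF4 to -0.50, -0.69 and -2.02 against PANC-1.

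In PANC-1 against HPDE, the 19 higher hosts of 33 became 9 of 23 at 40 reads (beside 56% of all hosts) and 12 of 25 with identical junctions only (59.5%), and the 3 lower hosts became 7 by total back-splice reads, 7 with identical junctions, 1 without short spans and 1 at a fold of 4. In SW1990 against HPDE, the 28 higher hosts of 44 became 10 of 23 at 40 reads (50%). In SW1990 against PANC-1, the 12 higher hosts of 46 became 21 by total back-splice reads, 6 of 29 at 40 reads (28.9%) and 22 of 44 with identical junctions (53.2%), and the 13 lower hosts became 7 by total back-splice reads, 8 by the median of ratios, 8 with identical junctions and 6 at a fold of 4. The median log2 ratio there moved from -0.12 to 0.84 and 0.37 under these scalings, while that of all hosts moved to 0.79 and 0.33. The cause of the other moves was not tested. Few reads limit most members: the median host with reads had 0.447 RPM in SW1990.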

Other observations

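Other RNA-binding hosts, taken from 5 lists by symbol, gave these values. Of the hosts tied to circRNA formation and turnover, 7 of 19 symbols were named hosts, and 4 were higher and 1 lower in SW1990 than in PANC-1. G3BP1, a stress granule protein, had 184 reads in HPDE beside 31 in PANC-1 and 214 in SW1990, so PANC-1 was lowest, as for PTBP1. XRN2, a nuclear exonuclease, had 87, 77 and 39 reads. Of other splicing factors, 13 of 15 tested were higher in SW1990 than in HPDE and none was lower, and against PANC-1 7 of 15 were higher and 2 lower. SON, a nuclear speckle scaffold like SRRM2, had 423 reads (8.79 RPM) in SW1990 and none in the other lines. SART1, of the tri-snRNP, had 151 reads in SW1990 alone. For SON and SART1 the absence elsewhere means no read at the junctions which the assignment reaches. Their reads with partly overlapping junctions are not given here.

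Of the hosts for mRNA decay and silencing, 6 of 11 tested were lower and 1 was higher in SW1990 than in PANC-1. CNOT2, CNOT6L and CNOT8 had the same direction by library-total RPM, the only scaling used for these lists. By total back-splice reads CNOT6L and CNOT8 lost the call, and 18.3% of all hosts were lower. DIS3L2, a decay exonuclease, had 15 reads in HPDE beside 100 in PANC-1 and 10 in SW1990. Of 3′ end processing factors, 2 of 4 tested were higher in SW1990 than in PANC-1, with SYMPK at 30, 31 and 114 reads. Among m6A and other RNA-binding proteins, ALKBH5, an m6A demethylase, had 149, 12 and 86 reads, and 4 of 15 were higher and 3 lower in SW1990 than in PANC-1. In SW1990 against HPDE, 4 of 7 hosts of circRNA formation and turnover were higher and 1 lower. For decay and silencing these were 2 and 1 of 6, for 3′ end processing 3 and 1 of 4, and for m6A and others 6 and 1 of 14. These shares stand beside 33.7% higher and 34.1% lower over all hosts in SW1990 against PANC-1. In SW1990 against HPDE 61.0% were higher and 12.9% lower. The listed hosts too were named from SW1990, so ratios of SW1990 to another line lean towards SW1990.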
